A study of Danio rerio with 5 samples.

Results

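Of the 1920 wells on the 5 plates, 466 held a globin-rich cell with little or no message of 7 mitosis genes, out of 933 wells kept for depth. A well was kept with at least 1000 transcripts on genes. It was called globin-rich when globin genes made up at least 20% of those transcripts, and non-dividing when fewer than 3 transcripts in sum fell on kif11, CENPF, kifc1, nuf2, oip5, NCAPG and knstrn. Globin and mitosis transcripts therefore chose the wells, and their levels against other wells and the globin share of members are given as a description. Single globin genes were also compared between morpholinos, a contrast the choice did not use. The other 467 kept wells were 66 dividing globin-rich wells, with 3 or more such transcripts, and 401 wells under 20% globin.

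All wells came from zebrafish embryos at 3 days post fertilization (dpf) that carried the runx1+23:mCherry transgene, in which a runx1 enhancer drives a red fluorescent protein in blood stem and progenitor cells (HSPCs). Embryos had been injected with a standard control morpholino or with the irf8 morpholino, an antisense oligonucleotide that blocks macrophage formation. Whole embryos were dissociated with liberase, and single live mCherry+ cells were sorted one to a well and sequenced by SORT-seq, which tags each transcript with a unique molecular identifier (UMI). On every plate wells 1 to 188 were standard control and wells 189 to 384 were irf8, so that well position, well barcode and morpholino cannot be told apart. The labels call the sorted cells HSPCs, and the wells described here are sorted mCherry+ cells whose most abundant messages were globins.

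Erythroid cells fill with hemoglobin, which joins alpha and beta globin chains around heme, an iron-holding ring made in steps that begin with alas2 and end with FECH. Zebrafish embryos use a first set of embryonic globins, and their red cells keep the nucleus, whose chromatin condenses as they mature. In mammals macrophages of the blood-forming tissue surround maturing erythroblasts and engulf what they shed.

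The 466 wells lay on plates 1, 2 and 4, apart from 2 standard control wells on plate 5. Plate 1 held 87 standard control and 70 irf8 wells, plate 2 held 64 and 77, and plate 4 held 87 and 79. On plate 3 none of 80 kept wells was globin-rich, which allows a share of up to 4.51% (exact Clopper-Pearson limit, 95%). Plates 3 and 5 also had the fewest kept wells, 80 and 45, against 259 to 276 on the others. The comparison between morpholinos was made on plates 1, 2 and 4 (n = 3), with the plate as the replicate. With the plate as a block, p-values measure how the difference between morpholinos within a plate varies from plate to plate. The sources used here do not say if each plate had its own clutch or sort, so that this variation may be technical.

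The globin share of the wells ran from 22.0% to 76.1%, with a median of 54.3%, and 414 of the 466 wells were at 40% or above. The lowest 5 members had 22.0%, 22.1%, 22.1%, 22.4% and 22.8%, and the 5 wells just below the threshold had 19.7%, 19.7%, 19.3%, 18.8% and 18.6%. Wells near the threshold were few. There were 9 members between 20% and 25% and 21 kept wells between 15% and 20%. No transcript of the 7 mitosis genes was seen in 380 members, 1 was seen in 69 and 2 in 17. Beyond the limit 3 globin-rich wells had 3, 3 had 4, 2 had 5 and 58 had more than 5.

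**Figure D1:**
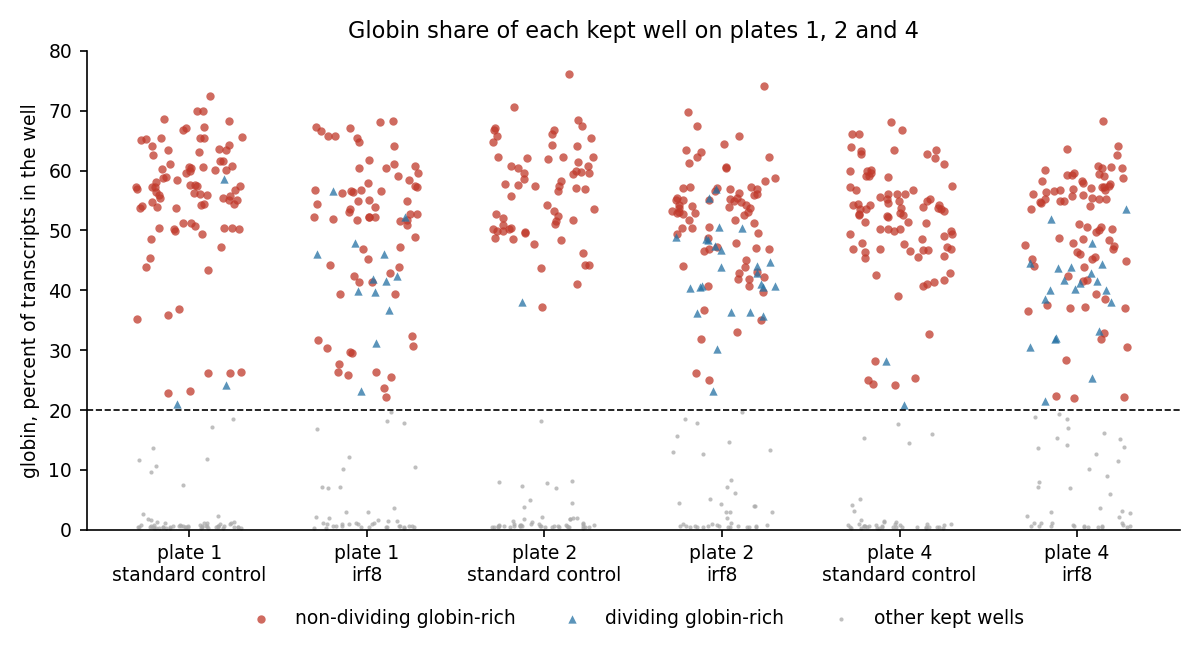
Globin share of each kept well of plates 1, 2 and 4 in percent of its transcripts, by plate and morpholino, with members in red, dividing globin-rich wells as blue triangles, other kept wells in grey and a dashed line at the 20% threshold. Most members lie well above the line, with a median of 54.3% over all 466.

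Member wells were shallow beside other wells. The median member had 4738 transcripts (1035 to 19085), against 10689 in other kept wells of the same plates and 8875 in dividing globin-rich wells. The irf8 members were deeper than the standard control members, with medians of 5743 and 4003 transcripts. A gene at 0 in all members could still be present in up to 1.25% of standard control or 1.33% of irf8 wells as far as counting goes (3 counts over the wells). No kept well had the same values as another. Members in same-numbered wells of different plates, which share a barcode, correlated by a median of 0.610 over 193 pairs, beside 0.592 for other-numbered wells. Same-numbered pairs also always share the morpholino, which other-numbered pairs need not, so that these values do not isolate the barcode.

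Erythroid markers outside the globins marked these wells too. Levels are given as CPM outside globins, the transcripts of a gene scaled to a fixed total of transcripts that are not globin, since globins take up a different share in each kind of well. epb41b, the protein 4.1 gene that ties the red cell skeleton to the membrane, had 1262, 1626 and 1579 CPM outside globins in members of plates 1, 2 and 4, and 109, 86.7 and 94.9 in other kept wells. It was seen in 87.7% of member wells and in 40.3% of other wells. ANK1 (ENSDARG00000059093), the ankyrin that anchors spectrin to the anion exchanger, had 133, 200 and 137 CPM outside globins in members and 10.1, 6.14 and 2.39 in other wells. Summed over wells both were higher in members on each plate, although this ANK1 was seen in only 30.2% of members. A second ID written ANK1, ENSDARG00000074777, was seen in 1.68% of standard control and 3.10% of irf8 members. In dividing irf8 wells the list of red cell membrane and skeleton genes made up 2.79%, 3.30% and 2.37% of transcripts outside globins. That was close to the 2.56%, 3.03% and 2.58% of irf8 members. The few dividing standard control wells had 1.02%, 0.893% and 0.687%, below the 2.30%, 2.57% and 2.19% of standard control members. In other kept wells of plates 1, 2 and 4 globins were a median of 0.602% to 2.84% of transcripts per plate and morpholino, and in wells not kept they were 11.1% to 14.3%.

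Among the most abundant genes outside the globins were those of iron storage, carbon dioxide carriage, heme synthesis and protein folding. The first was ENSDARG00000080337, with no symbol in the table used, at 60890 ± 2462 CPM outside globins in members and 46499 in other wells. fth1a, a ferritin heavy chain that stores iron, had 39454 ± 2748 CPM outside globins in members (SD, n = 3 plates) and a mean of 3437 in other wells. cahz, the carbonic anhydrase of zebrafish red cells, had 16976 ± 1528 beside 911, alas2 had 15655 ± 1590 beside 788, and SLC4A1, the band 3 anion exchanger, had 11407 ± 1522 beside 885. Each of these 4 genes was at least several times higher in members on every plate. The heat shock gene hsp70l, with 21405 ± 3615 CPM outside globins, was also high in other wells, at 7194.

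Further genes stood above other wells by a similar margin. si:ch211-103n10.5, a gene with no assigned role here, came first by the lowest ratio on any plate among genes with a symbol, with log2 ratios of 4.85 to 7.46 over the 3 plates. si:dkey-240n22.2 followed with 4.36 to 5.53, rell2 with 4.19 to 5.75 and RFESD, a Rieske iron-sulfur domain gene, with 4.15 to 4.28. SLC29A1, a nucleoside transporter of the red cell membrane, had 4.14 to 4.29, nt5c2l1, a nucleotidase gene, 4.12 to 4.28, and SLC20A1, a phosphate transporter, 3.94 to 4.70. These wells were chosen by their globins, which are read from the same cells, and the ratios carry no test.

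Within the globin message 7 genes made up nearly everything. hbae3, an embryonic alpha globin, gave 55.8% of member globin transcripts, and HBE1 (ENSDARG00000087390), a beta globin written under its human symbol, gave 24.7%. The alpha globin hbae1.3 gave 9.63%, HBE1 (ENSDARG00000045143) 4.21%, the embryonic beta globin hbbe3 3.98%, hbae1.1 0.906% and hbae1.2 0.537%. hbae3 and HBE1 (ENSDARG00000087390) were seen in 100% of member wells, and hbbe3 in 98.7%. In the median member these genes had 1446 transcripts of hbae3, 565 of HBE1 (ENSDARG00000087390), 237 of hbae1.3, 103 of HBE1 (ENSDARG00000045143) and 45.7 of hbbe3. In the best-covered well hbae3 reached 4298 estimated transcripts from 2662 UMIs, so that the correction for UMI collisions matters most for this gene. With uncorrected UMIs globins were 46.4% of member transcripts, and with the correction 49.8%.

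The remaining globins were rare. hbae4 gave 0.0924% of globin transcripts and was seen in 81.8% of member wells, and hbae5, one of the genes given as a marker of these cells, gave 0.0724% and was seen in 59.4%. HBE1 (ENSDARG00000089087) came almost whole from 1 standard control well on plate 1, with 781 transcripts or 97.6% of its total, and the next well had 5.0. HBE1 (ENSDARG00000069734) was seen in 2 wells and the alpha globin hbaa2 in none. Several copies share the human symbol HBE1, and near-identical globin copies can share reads, so that levels of single copies are uncertain. In the RefSeq annotation GRCz12tu, used for neighbours only, hbae4, hbbe3 and hbae5 lie in one group of globin genes and hbaa2, hbae1.1, hbae1.2, hbae1.3 and hbae3 in another. Alpha globins made up a median of 67.9% of the globin message of a well (42.3% to 81.9%), and no plate and morpholino had a median under 65.5%.

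To compare morpholinos, transcripts of member wells were summed per plate and morpholino, which gave 6 sums of 250947 to 549398 transcripts, and 2308 genes were tested. In irf8 sums 178 genes were higher and 216 lower at an adjusted p of 0.05 (edgeR), which is 7.71% and 9.36% of those tested, 17.1% in all. The levels of 729 genes, 31.6%, did not overlap between the 3 standard control and 3 irf8 sums, and the median log2 fold change of all genes was 0.05. Counts of calls and groups without overlap below stand beside these 17.1% and 31.6%. A list with a share near them is not set apart from other genes. Unless marked otherwise, levels below are normalised CPM, scaled to the total of the tested genes, globins included, times edgeR's normalisation factor. This factor ran from 0.8697 to 1.145 over the 6 sums. Log2 fold changes are of irf8 over standard control, given with the standard error and the adjusted p of edgeR's quasi-likelihood test. Without plate 2, 209 genes were called, 190 of them among the 394, and with means of per-well CPM in limma 246 were higher and 151 lower, with the median of all genes at 0.22.

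Among the globins hbbe3 rose, hbae5 and 1 HBE1 copy fell, and the abundant alpha globins were not called. hbbe3 had 9140, 12664 and 7068 CPM in the standard control sums of plates 1, 2 and 4 and 23699, 33437 and 29998 in the irf8 sums. The 2 groups did not overlap (log2 1.62, SE 0.18, adjusted p = 3.99e-05). As a share of globin transcripts hbbe3 made up 1.42%, 1.89% and 1.43% of the standard control sums and 5.32%, 6.56% and 5.81% of the irf8 sums. In the median well its share was 0.443%, 0.552% and 0.456% against 5.73%, 5.52% and 5.07%. Wells with under 1% of hbbe3 made up 71.3%, 59.4% and 63.2% of standard control members and 12.9%, 5.19% and 11.4% of irf8 members, so that the shift ran through most of the wells. Values in the other classes of well moved the same way, with no test of the difference between classes. In other kept wells hbbe3 was 1.39%, 2.58% and 2.52% of the few globin transcripts of standard control and 7.77%, 7.70% and 7.80% of those of irf8. In the 13, 25 and 22 dividing irf8 wells it was 12.6%, 14.2% and 9.76%. Only 3, 1 and 2 dividing wells were standard control, and there it was 2.63%, 0.0830% and 0.599%. Wells not kept had 4.46%, 4.61% and 2.54% in standard control and 6.25%, 9.12% and 7.86% in irf8.

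**Figure D2:**
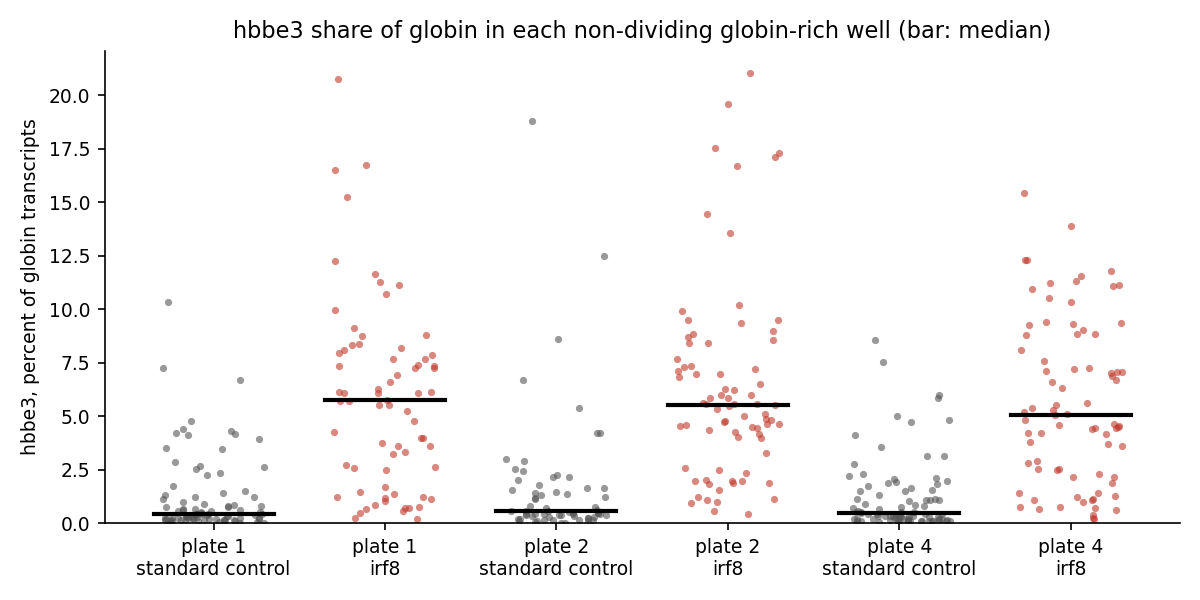
hbbe3 in percent of the globin transcripts of each member well, by plate and morpholino, with a bar at the median. Medians lie between 0.443% and 0.552% in standard control and between 5.07% and 5.73% in irf8 wells.

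hbae5, which lies in the same group of genes as hbbe3, went the other way. It had 680, 858 and 503 CPM in standard control sums and 222, 234 and 182 in irf8 sums, without overlap (log2 -1.65, SE 0.13, adjusted p = 2.75e-06). HBE1 (ENSDARG00000045143) had 36153, 38670 and 28180 CPM against 13520, 16517 and 15579, also without overlap (log2 -1.17, SE 0.17, adjusted p = 0.000351), and its share of globin was 5.61%, 5.77% and 5.70% against 3.04%, 3.24% and 3.02%. The major beta globin HBE1 (ENSDARG00000087390) had 166634, 173351 and 136262 CPM against 103855, 107262 and 127487, with log2 -0.49 and an adjusted p of 0.188 by edgeR. It passed the threshold in 6 of the alternative fits, among them that without plate 4 (log2 -0.70). hbae3 with log2 -0.25, hbae1.3 with -0.22, hbae1.1 with -0.24, hbae1.2 with -0.34 and hbae4 with -0.22 were not called, and their groups overlapped. Without plate 4 hbae3 (log2 -0.42), hbae1.3 (-0.44), hbae1.1 (-0.49) and hbae1.2 (-0.57) were called lower, and these 4 also passed in wells low in muscle and cartilage markers. Both fits held plates 1 and 2 only. hbae3, hbae1.3, hbae1.1 and hbae4 were above 0 when each well was thinned to 1000 transcripts, and hbae4 also with per-well means. The 9 globins tested had a median log2 of -0.25. The wells were chosen by the sum of globins, of which hbae3 gave 55.8% and HBE1 (ENSDARG00000087390) 24.7%. The levels of these main copies are thus close to the value chosen on, and nothing is concluded from their p values. The called copies hbbe3, hbae5 and HBE1 (ENSDARG00000045143) entered that sum too, as 3.98%, 0.0724% and 4.21% of member globin. Their p values are for levels in wells chosen in part by them. The choice fixes no one copy's share of globin.

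In heme synthesis 3 of 12 genes tested were higher and none lower, 25% called beside 17.1% of all genes. DESeq2 called 1 of the 12 higher, in a fit that called 203 of all 2308 genes. The median log2 was 0.20 beside 0.05 for all genes. FECH, ferrochelatase, which puts iron into the ring, had 36, 48.5 and 35.4 CPM in standard control sums and 102, 103 and 69.6 in irf8 sums (log2 1.18, adjusted p = 0.0131). ABCB10, a mitochondrial transporter that works with iron import for heme, had 22.9, 9.69 and 10.1 against 42.6, 32.7 and 34.8 (log2 1.36, adjusted p = 0.0481), a call that was lost in 12 of 14 alternatives. FECH was at adjusted p values of 0.0616 and 0.0554 without plates 1 and 2, and ABCB10 at 0.0551, 0.192 and 0.230 without plates 1, 2 and 4. The first enzyme, alas2, had 7760, 9048 and 7228 against 7647, 9347 and 8485, with groups that overlapped and log2 0.09 (adjusted p = 0.717).

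Iron genes were split, with 20% of those tested called beside 17.1% of all genes. SNX3, which sorts the transferrin receptor, was the 1 of 10 tested that rose, with 105, 77.5 and 96.1 CPM against 162, 164 and 170 (log2 0.82, adjusted p = 0.0153). Its adjusted p was 0.154 without plate 2. ISCU, the scaffold on which iron-sulfur clusters form, was the 1 that fell, with 209, 242 and 124 CPM against 72.4, 105 and 81.3 (log2 -1.11, adjusted p = 0.00358). fth1a, the most abundant iron gene, had 25089, 29026 and 21595 against 16544, 19416 and 19222, which do not overlap, and was not called (log2 -0.45, adjusted p = 0.0791). It passed the threshold, always lower, in 6 of 18 alternatives, among them the fit without plate 4 (log2 -0.60, adjusted p = 1.21e-09). The list's median log2 was -0.11, and above 0 with per-well means or thinning.

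Erythroid transcription factors had 1 of 14 genes higher and 1 lower (14.3% called, beside 17.1% of all genes), and a median log2 of 0.02. klf17, a Kruppel-like factor of the embryonic blood island in zebrafish, had 26.2, 58.2 and 27.8 CPM in standard control sums and 115, 199 and 201 in irf8 sums, without overlap (log2 2.27, SE 0.28, adjusted p = 0.000102). Outside globins it reached 694, 765 and 375 CPM in dividing irf8 wells, beside 224, 382 and 368 in irf8 members. LMO2, an adaptor of the erythroid transcription complex, had 304, 344 and 281 CPM against 198, 217 and 159 (log2 -0.70, adjusted p = 0.00403). LMO2 was not called after thinning (log2 -0.17, adjusted p = 0.636). klf1, the master regulator of adult erythroid genes in mammals, had 278, 330 and 316 against 228, 245 and 242 and missed the threshold (log2 -0.36, adjusted p = 0.0961). hemgn, hemogen, a nuclear protein of blood cells that stood outside the list, had 3114, 3291 and 2778 against 1794, 1874 and 1966 (log2 -0.70, adjusted p = 0.00099, and 0.0511 without plate 2).

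Of 14 genes of the red cell membrane and its skeleton 2 were higher and 2 lower, 28.6% called beside 17.1% of all genes. SPTB, beta spectrin of the skeleton, had 523, 649 and 468 CPM against 737, 902 and 882 (log2 0.63, adjusted p = 0.00319). SLC4A1, band 3, had 4472, 4924 and 4230 against 6205, 7944 and 6727 (log2 0.61, adjusted p = 0.0041, and 0.191 without plate 2). SLC29A1, the nucleoside transporter, had 612, 654 and 539 against 239, 245 and 240 (log2 -1.31, SE 0.13, adjusted p = 1.32e-05). These 3 genes did not overlap between groups. TMOD4, a tropomodulin that caps actin, had 1250, 1270 and 1032 against 752, 895 and 940 (log2 -0.45, adjusted p = 0.0271). TMOD4 lost its call without plate 1 or 2 (0.163 and 0.173), and its direction after thinning. The markers epb41b (log2 -0.18, adjusted p = 0.338) and ANK1 (ENSDARG00000059093, log2 -0.42, adjusted p = 0.334) overlapped between groups. The median log2 of the list was -0.10, and above 0 with per-well means or thinning.

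Among 8 genes of oxygen, carbon dioxide and sugar metabolism 2 were higher, 25% beside 17.1% called of all genes. cahz had 7407, 7716 and 6821 CPM against 8909, 10957 and 10255, without overlap (log2 0.45, adjusted p = 0.0347, and 0.418 without plate 2). GAPDH, the glycolytic enzyme, had 22.9, 38.8 and 65.8 against 74.6, 53.8 and 193, with groups that overlapped (log2 1.34, adjusted p = 0.00889). GAPDH was highest on plate 4 in both groups, as the muscle markers were, and was not called in wells under 1% of muscle and cartilage markers (log2 0.90, adjusted p = 0.348) or without plate 4 (0.0911).

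**Figure D3:**
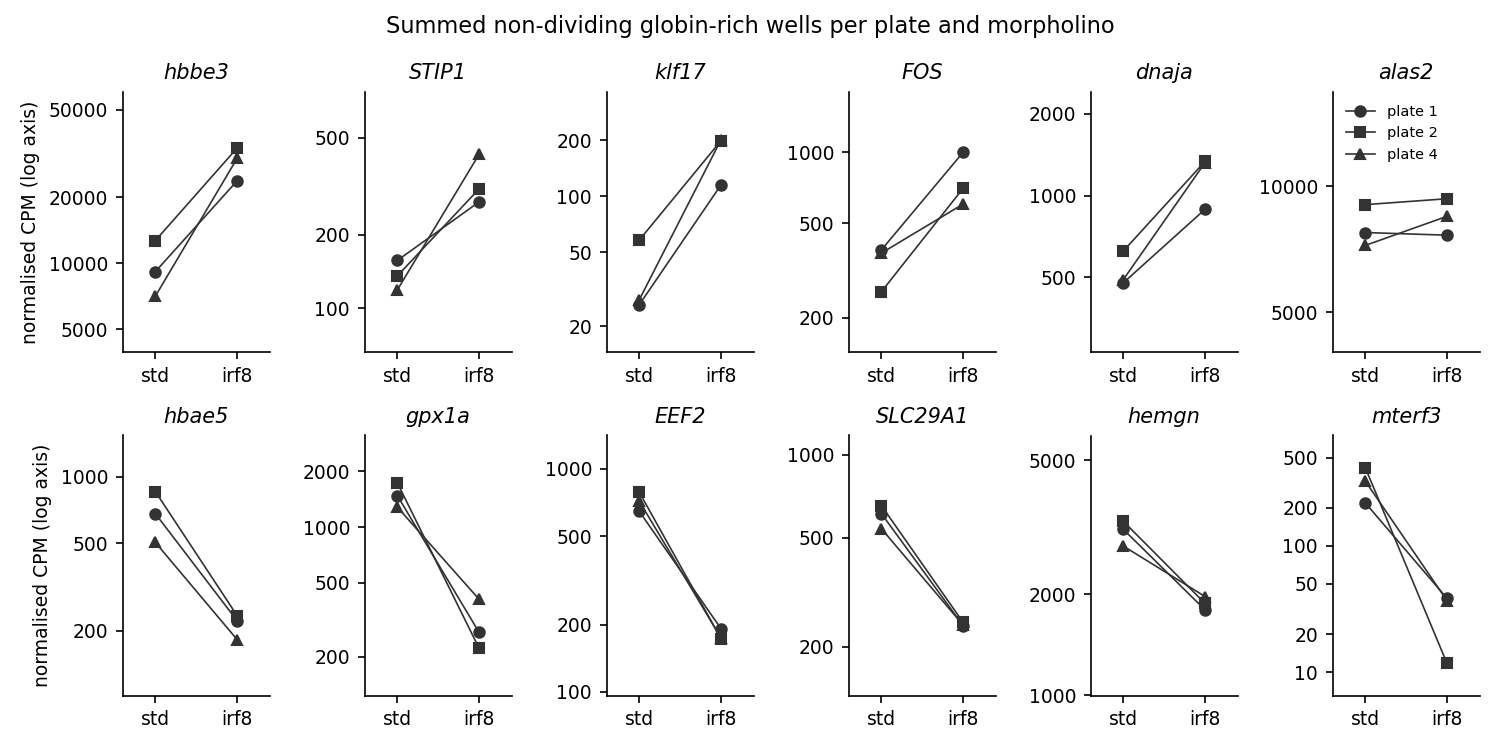
Normalised CPM on a log axis of 12 genes in the summed members of plates 1, 2 and 4, with 1 line per plate from standard control to irf8. hbbe3, STIP1, klf17, FOS and dnaja lie higher in irf8 on every plate, hbae5, gpx1a, EEF2, SLC29A1, hemgn and mterf3 lie lower, and alas2 overlaps.

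Most messages of cytosolic ribosomal proteins were lower in irf8 members. Of 71 genes for proteins of the cytosolic ribosome 61 were called lower and none higher, with a median log2 of -0.69. Together they made up 13.6%, 14.4% and 14.0% of transcripts outside globins in standard control sums and 8.51%, 9.39% and 9.04% in irf8 sums, which do not overlap. The count was 44 lower by limma on per-well means, 48 by DESeq2 and 40 of 68 after thinning to 1000 transcripts, with medians of -0.51 by limma and -0.47 after thinning. RPS28 of the small subunit had 851, 819 and 845 CPM against 249, 278 and 371 (log2 -1.49, SE 0.14, adjusted p = 7.42e-06). rps20 had 1852, 2006 and 2016 against 780, 961 and 967 (log2 -1.12), and rps27.1 1060, 1173 and 1060 against 507, 629 and 495 (log2 -1.02). EEF2 (ENSDARG00000035256), written as the elongation factor that moves the ribosome along the message, had 644, 785 and 716 against 192, 173 and 174 (log2 -1.98, SE 0.14, adjusted p = 6.42e-07). In other kept wells it was scarcer, and lower in irf8 on plate 1 only. It had 92.0, 45.2 and 51.4 CPM outside globins there in standard control and 47.0, 137 and 188 in irf8. Standard control members had 1194, 1439 and 1367 on that scale.

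The same list was lower in irf8 among other kept wells as well, at 16.2%, 18.8% and 18.8% of transcripts outside globins in standard control and 13.5%, 11.3% and 9.43% in irf8. The difference between members and other wells was not tested. Other kept wells were a mix of cells that differed by morpholino. Their muscle markers were at 2.55%, 0.188% and 0.724% in standard control and 0.745%, 3.76% and 16.2% in irf8. Their neutrophil markers were at 0.574% to 0.820% and 0.144% to 0.404%. Values of other kept wells by morpholino, here and for single genes, are thus not like for like, and the part of this mix was not tested. Per well the median share in members was 13.7%, 13.8% and 12.1% in standard control and 8.10%, 8.38% and 8.30% in irf8. Dividing irf8 wells had 10.2%, 10.2% and 10.3%. Depth moved with this result, since irf8 members held more transcripts, and the thinned counts above are at an equal total per well, globins included, so that depth outside globins was not matched.

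Among the 15 higher genes with the smallest p, 2 act in the start of translation. ABCF1, which binds the initiation factor eIF2 and ribosomes, had 39.3, 33.9 and 35.4 CPM against 151, 110 and 178 (log2 2.03, SE 0.28, adjusted p = 0.000206). EIF2S2, a subunit of eIF2, had 193, 242 and 149 against 386, 449 and 420 (log2 1.13, SE 0.16, adjusted p = 0.000206). No list of initiation factors was counted.

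In the antioxidant list 2 of 13 genes tested were lower and none higher (15.4% called, beside 17.1% of all genes), and the list's median log2 was -0.01. gpx1a, a glutathione peroxidase that reduces hydrogen peroxide, had 1479, 1735 and 1283 CPM in standard control sums and 271, 222 and 408 in irf8 sums (log2 -2.32, SE 0.19, adjusted p = 2.75e-06). The highest irf8 sum was at 408 and the lowest standard control sum at 1283. PRDX1 (ENSDARG00000025350), a peroxiredoxin, had 7613, 8157 and 6001 against 4362, 4983 and 5076 (log2 -0.58, adjusted p = 0.0112), and 0.0529 and 0.192 without plates 1 and 2. In other kept wells gpx1a had 215, 252 and 247 CPM outside globins in standard control and 76.1, 47.1 and 112 in irf8, so that it was lower there too.

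Autophagy genes were called only in the lower direction. In the autophagy list 4 of 8 genes tested were lower and none higher, with a median log2 of -0.54. gabarapb, one of the small proteins that coat the autophagosome, had 321, 494 and 379 CPM against 192, 227 and 219 (log2 -0.88, adjusted p = 0.00064), and gabarapa had 501, 485 and 377 against 296, 199 and 329 (log2 -0.71, adjusted p = 0.0117). BNIP3L (ENSDARG00000028067), the receptor by which maturing mammalian red cells clear mitochondria, had 834, 732 and 706 against 524, 463 and 557 (log2 -0.55, adjusted p = 0.00635). None of these 3 overlapped. The second copy, BNIP3L (ENSDARG00000025468), had log2 0.48 and an adjusted p of 0.423. GABARAPL2, of the same family as gabarapa, had 128, 228 and 116 against 83.1, 86.5 and 87.1 (log2 -0.81, adjusted p = 0.0367). Without plate 2 the calls of BNIP3L, gabarapa and GABARAPL2 were lost, at adjusted p values of 0.0884, 0.147 and 0.316, and after thinning those of gabarapb and BNIP3L, at 0.0619 and 0.153.

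Of 17 genes of the ubiquitin system and the proteasome 5 were higher and 1 lower, with a median log2 of 0.53. PSMB7, a catalytic subunit of the proteasome core, had 108, 126 and 78.4 CPM against 217, 252 and 246 (log2 1.23, adjusted p = 0.000623). PSMA4, an outer ring subunit, had 36, 33.9 and 20.2 against 78.8, 93.5 and 106 (log2 1.67, adjusted p = 0.00327), and the core subunits PSMB3 (log2 1.11) and PSMB1 (log2 1.17) followed. uba1, the enzyme that activates ubiquitin, had 29.4, 14.5 and 45.5 against 72.4, 49.1 and 75.4 (log2 1.1, adjusted p = 0.0362), which was 0.127 and 0.150 without plates 1 and 2. PSMB1 was at 0.0685 without plate 2.

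Genes of protein folding in the cytosol were mostly higher where they were called. Of 22 heat shock genes tested 8 were called higher and 1 lower, with a median log2 of 0.52. The list made up 3.08%, 3.69% and 3.23% of transcripts outside globins in standard control and 4.34%, 5.26% and 4.09% in irf8. In other kept wells the list was at 2.50%, 3.00% and 2.65% against 3.07%, 2.49% and 1.82%, lower in irf8 on 2 of 3 plates, and the difference between the classes of well was not tested. STIP1, which hands clients from HSP70 to HSP90, had 157, 136 and 119 CPM against 273, 309 and 428 (log2 1.3, SE 0.19, adjusted p = 0.000383). BAG3, a co-chaperone of HSP70, had 164, 107 and 119 against 326, 217 and 248 (log2 1.03, adjusted p = 0.000636), and hsp70.1 had 216, 320 and 281 against 360, 629 and 515 (log2 0.86, adjusted p = 0.000432). Sums of the 2 groups did not overlap for any of them.

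The abundant heat shock genes moved less. hsp70l had 8025, 10284 and 8169 CPM against 11986, 15052 and 11552 (log2 0.54, adjusted p = 0.0136), and HSP90AA1 had 4982, 5695 and 6132 against 7172, 9314 and 7893 (log2 0.53, adjusted p = 0.013). Without plate 2 their adjusted p values were 0.290 and 0.360, and that of hsp70l was 0.0638 without plate 1. 2 genes are written HSPA8, the constant member of the HSP70 family. ENSDARG00000068992 had 3052, 3296 and 2730 CPM against 1997, 2125 and 1919 and was the list's lower call (log2 -0.58, adjusted p = 0.00276, and 0.0848 without plate 2), while ENSDARG00000037403 had 3.27, 4.85 and 10.1 against 32.0, 35.1 and 48.4 (log2 2.56, adjusted p = 0.00286). Outside the list dnaja, a DnaJ co-chaperone gene, had 478, 625 and 491 against 891, 1337 and 1323 (log2 1.15, SE 0.13, adjusted p = 4.52e-05). In other kept wells dnaja was higher in irf8 on each plate too, with 765, 705 and 682 CPM outside globins against 1008, 820 and 850. HSPA4 (ENSDARG00000004754), of the HSP110 family, had 255, 267 and 283 CPM in members against 516, 547 and 509 (log2 0.96, SE 0.13, adjusted p = 0.000204).

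In the endoplasmic reticulum 1 of 9 chaperone genes was called, 11.1% beside 17.1% of all genes. HYOU1, a large HSP70 relative of that compartment, had 13.1, 19.4 and 10.1 CPM against 42.6, 58.4 and 71.6 (log2 2.08, SE 0.43, adjusted p = 0.0041). The other 8 were not called, and the list's median log2 was 0.34.

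Immediate-early genes were higher for 2 of the 10 tested, 20% beside 17.1% called of all genes. FOS had 386, 257 and 374 CPM against 999, 704 and 604 (log2 1.15, SE 0.15, adjusted p = 0.000187, and 0.188 with globin at 10% or more). In other kept wells FOS had 1179, 1762 and 1547 CPM outside globins in standard control and 1990, 1634 and 1537 in irf8, higher on plate 1 only. JUN, the partner of FOS in the AP-1 factor, had 330, 349 and 402 CPM in members against 622, 774 and 447 (log2 0.72, adjusted p = 0.00887, and 0.176 without plate 2). In members both were higher on each of the 3 plates. The ERK and immediate-early list had a median log2 of 0.12.

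Hand-written lists of FoxO targets, senescence and cell cycle genes, processes the study discusses for HSPCs, were counted in these wells too. Of 11 FoxO targets 2 were higher and 1 lower (27.3% called, beside 17.1% of all genes), with a median log2 of 0.01. BTG1, an antiproliferative gene, had 432, 417 and 445 CPM against 198, 245 and 222 (log2 -0.97, SE 0.14, adjusted p = 0.00029). BTG2, of the same family, had 147, 92.1 and 96.1 against 232, 185 and 143 (log2 0.72, adjusted p = 0.0207), and CCNG1, cyclin G, had 802, 1027 and 906 against 970, 1302 and 1461 (log2 0.44, adjusted p = 0.0228). BTG1 did not overlap between groups, and BTG2 and CCNG1 did. BTG2 was at 0.206 without plate 2 and CCNG1 at 0.177 and 0.135 without plates 2 and 4. Of 10 senescence genes 1 was higher and none lower (10% called), with a median log2 of 0.26, and 9 were not called.

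Few cell cycle genes could be tested in wells chosen for the absence of mitosis transcripts. RRM1, a subunit of the enzyme that makes deoxynucleotides, had 6.54, 9.69 and 5.06 CPM against 23.4, 25.7 and 52.2 (log2 2.33, SE 0.54, adjusted p = 0.00856). RRM1 rested on few transcripts and missed the threshold at 10% globin (0.0903) and with per-well means (0.128). PCNA, the clamp of the replication fork, had 81.8, 96.9 and 121 against 102, 201 and 130 (log2 0.46, adjusted p = 0.223). tubb4b, a beta tubulin on the list of G2 and M phase, had 451, 509 and 430 against 271, 327 and 248 (log2 -0.72, adjusted p = 0.00123), and an adjusted p of 0.107 after thinning. Chromatin genes had 3 of 10 higher and none lower (30% called, beside 17.1% of all genes), with a median log2 of 0.41. They were hmga1a, a high mobility group protein (log2 0.52), h3f3a, a replacement histone H3 (log2 0.54), and HDAC1, a histone deacetylase (log2 0.82), with adjusted p values of 0.0114, 0.022 and 0.0441. All 3 lost their calls without plate 1 (0.0832, 0.120 and 0.0873) and without plate 2 (0.0872, 0.139 and 0.305). DESeq2 called none of the 10 chromatin genes. histh1l1, a linker histone, was among the strongest calls in the other direction, with 4295, 3824 and 3405 CPM against 1438, 1538 and 1333 (log2 -1.42, SE 0.12, adjusted p = 4.1e-06).

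Mitochondrially encoded genes were called in the higher direction, and few nuclear respiratory genes were called. Of 12 mitochondrially encoded genes tested 3 were called higher and none lower (25%, beside 17.1% of all genes), with a median log2 of 0.35. MT-CO1, a subunit of cytochrome oxidase, had 6873, 4740 and 4344 CPM against 8523, 8732 and 9878 (log2 0.79, SE 0.16, adjusted p = 0.00367). MT-CO3 (log2 0.59) and MT-CO2 (log2 0.54) were the others, with adjusted p values of 0.0143 and 0.0288. The calls of MT-CO1, MT-CO3 and MT-CO2 were lost without plate 2, at 0.134, 0.174 and 0.228. The list made up 6.62%, 4.50% and 4.36% of transcripts outside globins in standard control and 7.32%, 6.82% and 7.89% in irf8. Of 67 nuclear genes of the respiratory chain 1 was higher, ATP5F1B of the ATP synthase (log2 0.44, adjusted p = 0.0406), and 2 were lower, NDUFB1 of complex I (log2 -1.07, adjusted p = 0.0232) and atp5if1b, an inhibitor of the ATP synthase (log2 -0.89, adjusted p = 0.0141). In that list 4.48% were called, beside 17.1% of all genes, and its median was 0.04, near the 0.05 of all genes. Without plate 2 ATP5F1B, NDUFB1 and atp5if1b were at 0.434, 0.0697 and 0.154, after thinning atp5if1b was at log2 -0.03 (adjusted p = 0.966), without plate 1 NDUFB1 was at 0.130, and without plate 4 ATP5F1B was at 0.0843. mterf3, which acts on transcription and ribosome assembly in mitochondria, had 219, 417 and 326 CPM against 38.4, 11.7 and 36.8 (log2 -3.39, SE 0.32, adjusted p = 9.55e-06).

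**Figure D4:**
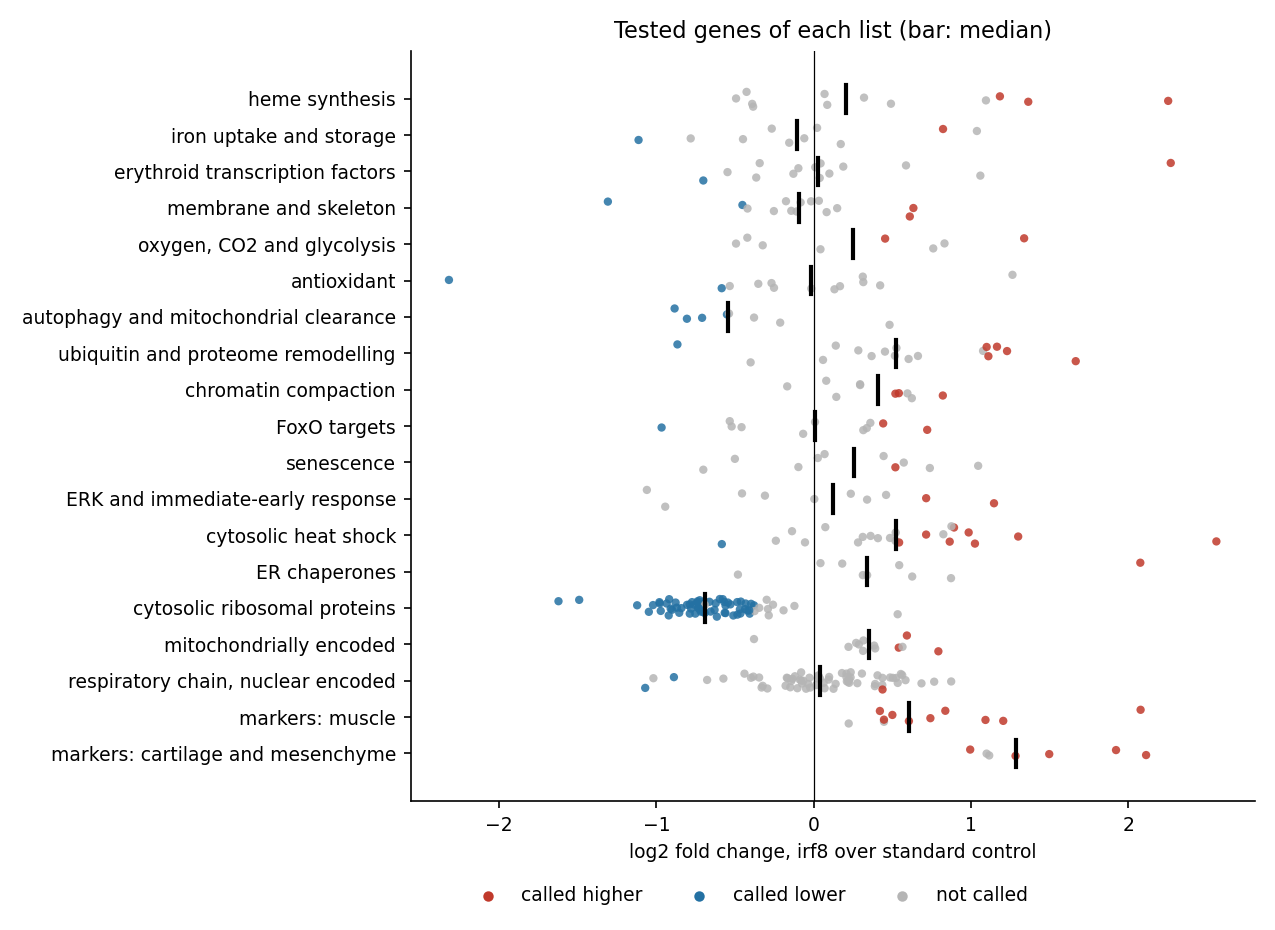
Log2 fold change of irf8 over standard control for every tested gene of 19 lists, coloured by whether edgeR called it higher, lower or neither, with a bar at the list's median. Nearly all ribosomal protein genes lie below 0, with a median of -0.69, and the heat shock and proteasome lists have medians of 0.52 and 0.53.

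Several of the strongest calls fell in no list. si:ch211-103n10.5, which also had the highest ratio of members over other wells, had 867, 868 and 620 CPM in standard control sums and 119, 140 and 122 in irf8 sums (log2 -2.61, SE 0.14, adjusted p = 1.08e-07). It was seen in only 25.6% of standard control members and 14.2% of irf8 members. RNF10, a RING finger protein, had 478, 480 and 491 against 153, 145 and 126 (log2 -1.78, SE 0.14, adjusted p = 2.75e-06). tdh, threonine dehydrogenase of the mitochondrion, had 834, 674 and 670 against 343, 294 and 281 (log2 -1.25), and si:ch211-250g4.3 had 608, 698 and 949 against 307, 243 and 377 (log2 -1.27). Each of these genes was lower in irf8 on all 3 plates without overlap. In the other direction si:ch1073-184j22.1 had 3.27, 4.85 and 0 CPM against 93.8, 110 and 90.9 (log2 5.25, SE 0.55, adjusted p = 2.33e-05), a gene near absence in standard control whose fitted fold change depends on the prior count. GTPBP1, a GTP-binding protein, had 39.3, 67.9 and 50.6 against 141, 210 and 155 (log2 1.68, SE 0.24, adjusted p = 0.000278).

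Transcripts of other tissues were present at a low level and differed between morpholinos. Of 11 muscle markers tested 9 were called higher in irf8 and none lower. They summed to 0.462% to 2.29% of transcripts outside globins in standard control and 0.680% to 3.19% in irf8, with the highest values on plate 4 in both groups and ranges that overlap. pvalb1, a muscle parvalbumin, had 236, 126 and 595 CPM against 575, 224 and 1236 (log2 1.09, SE 0.14, adjusted p = 0.000102), and atp2a1, the calcium pump of fast muscle, had 203, 107 and 946 against 571, 386 and 1590 (log2 1.2, SE 0.17, adjusted p = 0.000304). Plates differed more than morpholinos for both. Of 7 cartilage and mesenchyme markers 5 (71.4%) were called higher, with sums of 0.0524% to 0.0941% against 0.121% to 0.264%. MATN4, a cartilage matrix gene, had 16.4, 19.4 and 10.1 against 160, 25.7 and 27.1 (log2 2.11, adjusted p = 0.00901, and 0.384 without plate 1), so that 1 sum carries much of that value. The collagen genes col1a1a (log2 0.99, adjusted p = 0.00137) and COL1A2 (log2 1.28, adjusted p = 0.00353, and 0.0932 without plate 4) turned to -0.79 and -0.52 in wells under 1% of muscle and cartilage markers, a filter that counts these collagens among its markers and so acts on their level.

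The other marker lists were thinner. Epidermis had 2 of 8 tested genes higher, krt18a.1 (log2 1.74, adjusted p = 0.00177) and krt8 (log2 1.21, adjusted p = 0.00425, and 0.0527 without plate 2), with summed levels of 0.198% to 0.510% against 0.290% to 0.546%. Lens had 1 of 5 higher, 20% called, at 0.0314% to 0.189% against 0.0602% to 0.206%. Of 2 thrombocyte genes gp9 was lower (log2 -0.73, adjusted p = 0.0285, and 0.0804 and 0.108 without plates 1 and 2), at a list level of 0.0746% to 0.0796% against 0.0494% to 0.0736%. Macrophage markers were near absent, at 0.000888% to 0.00424% in standard control and 0.000708% to 0.00415% in irf8, and 12 and 13 of the 20 genes were at 0. Neutrophil markers were at 0.0242% to 0.0280% and 0.0207% to 0.0280%, and neural markers at 0.0160% to 0.0502% and 0.0247% to 0.0777%, with none called.

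Restricting members to wells with under 1% of muscle and cartilage markers left plates 1 and 2, since no member of plate 4 was under that limit. In those wells 287 genes were called, 118 higher and 169 lower, of which 242 were among the 394. Of the called genes named here 14 lost the call in that subset, among them LMO2 (adjusted p = 0.167), SNX3 (0.0566), MT-CO2 (0.165), MT-CO3 (0.146), PSMB3 (0.0524) and PSMB1 (0.0578). hbbe3, klf17, hbae5, gpx1a and EEF2 kept theirs.

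Over the wells themselves, members were fewer among globin-rich wells of irf8 embryos. They made up 96.7%, 98.5% and 97.8% of globin-rich wells in standard control and 84.3%, 75.5% and 78.2% in irf8, with exact Clopper-Pearson intervals of 90.6% to 99.3%, 91.7% to 100% and 92.1% to 99.7% against 74.7% to 91.4%, 66.0% to 83.5% and 68.9% to 85.8%. The means were 97.6% ± 0.904 and 79.3% ± 4.53 (SD, n = 3), lower in irf8 on 3 of 3 plates. The difference of -18.3 points had p = 0.25 in a two-sided exact sign-flip test, the smallest p that 3 plates allow. No difference of any size could give a lower p, so the test decides nothing. The share is also counted with the globin and mitosis limits that chose the wells, and it is given as a description. The limit of 3 mitosis transcripts is not scaled to depth and irf8 wells were deeper. After thinning each well to 1000 transcripts and asking for none of the 7 genes, the shares were 93.3% and 77.4%, a difference of -15.8 points.

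As a share of all kept wells members were 57.6%, 54.7% and 66.9% in standard control and 56.0%, 54.2% and 55.2% in irf8. The means of 59.7% ± 6.38 and 55.2% ± 0.891 (SD, n = 3) differed by -4.59 points (exact sign-flip p = 0.25, the smallest that 3 plates allow). This share too is counted with the limits that chose the wells, and nothing is concluded from its p value. Most of the difference came from plate 4, without which it was -1.05 points. The globin share of the summed transcripts was 54.4%, 55.1% and 48.5% against 46.5%, 49.5% and 48.6%. The means were 52.7% ± 3.61 and 48.2% ± 1.54 (SD, n = 3), a difference of -4.51 points, lower in irf8 on 2 of 3 plates and -6.79 points without plate 4. The wells were chosen on this share, so it is given with no test.

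The median member held 3970, 3690 and 4374 transcripts in standard control and 5656, 5036 and 6988 in irf8, higher on 3 of 3 plates. The difference of the means was 1882 transcripts, and 769 of transcripts outside globins. For the former the exact sign-flip p was 0.25, the smallest that 3 plates allow, so the test decides nothing. Spike-in molecules, control RNA counted in each well, had medians of 562, 629 and 466 in standard control and 645, 673 and 748 in irf8 members, and transcripts per spike-in were 6.75, 6.10 and 7.36 against 8.72, 7.60 and 9.38. Recovery of spike-ins and the ratio to them were thus both higher in irf8 wells on each plate. Genes seen per well moved with this, at medians of 651, 642.5 and 724 against 927, 857 and 1034.

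**Figure D5:**
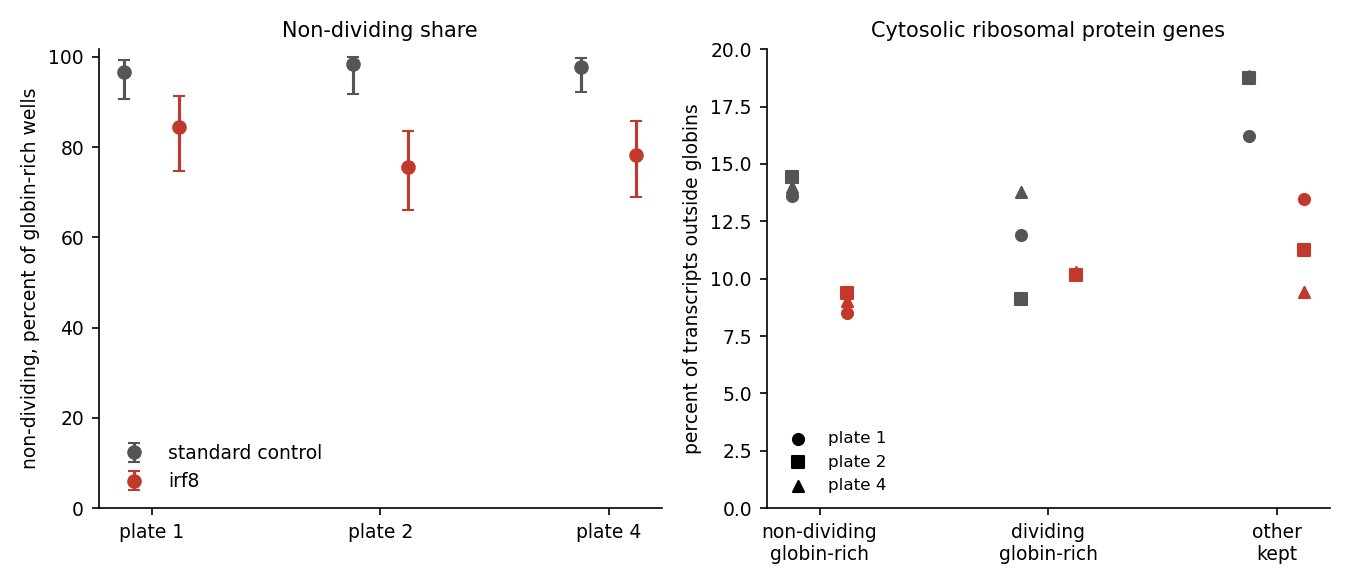
Left, non-dividing wells in percent of globin-rich wells by plate and morpholino, with exact 95% Clopper-Pearson bars; right, ribosomal protein messages in percent of transcripts outside globins in members, dividing globin-rich wells and other kept wells, with only 3, 1 and 2 dividing wells in standard control. The share of non-dividing wells runs from 96.7% to 98.5% in standard control and from 75.5% to 84.3% in irf8.

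Against the 60 dividing irf8 wells of the same plates, which the mitosis genes set apart, irf8 members were lower in other mitosis genes and in most chromatin genes. These ratios carry no test. NUSAP1, a spindle protein, was lower by log2 ratios of -6.10 to -5.40 over the 3 plates, CCNB1, cyclin B1, by -5.77 to -4.76 and CDK1, its kinase, by -5.09 to -4.61. All 19 measured genes of G2 and M phase were lower on every plate, with a median of -4.45. Of 12 heme genes 8 were lower on every plate and 1 higher, with a median of -1.19, although the list's summed share outside globins was 1.77%, 2.11% and 1.81% in members and 1.8%, 1.93% and 1.56% in dividing wells. alas2, its most abundant gene, was higher in members, with 14905, 17953 and 15520 CPM outside globins beside 12185, 11373 and 10334. Of 11 chromatin genes 8 were lower and none higher, with a median of -0.91. In the other direction 5 of 7 autophagy genes and 11 of 11 mitochondrially encoded genes were higher in members on every plate, with medians of 0.95 and 0.50. The collagen genes COL1A2 (2.40 to 2.85) and COL5A1 (2.0 to 3.11) were among the highest ratios, and 4 of 6 cartilage markers were higher in members. Over all 1593 genes compared 361 were higher and 489 lower on every plate, with a median of -0.04.

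Members also differed among themselves in how much of their message was globin. Within each of the 6 sums the level of 720 genes outside globins was set against the globin share of the well by Spearman correlation, and the 6 values were averaged. These correlations are over cells that share a plate and a library, and they share the well's depth, since transcripts outside globins fell with the globin share (rho -0.74 to -0.26 over the sums). ENSDARG00000090689, a gene with no symbol, had the highest mean rho, 0.62 (0.51 to 0.72). Among the next highest were cahz with 0.39, hemgn with 0.38, PRDX1 (ENSDARG00000025350) with 0.36, SLC4A1 with 0.36 and alas2 with 0.34. Erythroid genes as a whole did not share this sign, since 5 of 6 heme synthesis genes were negative (median -0.06, alas2 the positive one) and erythroid transcription factors had 6 positive and 4 negative. On the other side SYNCRIP, an RNA-binding protein, had -0.38, CFL1, cofilin, -0.32, marcksl1b -0.32, ppiaa -0.30, hmgb2b, a high mobility group protein, -0.29 and HDAC1 -0.27. The median over the 720 genes was -0.05, with 203 positive and 517 negative. Of 13 membrane and skeleton genes 12 were positive, of 70 ribosomal protein genes 62 were negative, and all 6 chromatin genes were negative.

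The share of hbbe3 among globins was set against other values of the member wells. Its mean rho within sums was -0.06 with the globin share of the well and 0.10 with the mitosis transcripts. The choice of wells limited both measures, and 380 of 466 members had no mitosis transcript, so that nothing is concluded from these values. Across the mitosis limit hbbe3 was 12.6%, 14.2% and 9.76% of globin in dividing irf8 wells and 5.32%, 6.56% and 5.81% in irf8 members. gpx1a, chosen with its values seen, was negative in all 6 sums, with a mean of -0.33 (-0.49 to -0.24). SNX3 had 0.25, fth1a -0.31 and EEF2 -0.25. The ribosomal share outside globins was positive in all 6 sums, with a mean of 0.19 (0.03 to 0.36). Between morpholinos the signs were opposite, with hbbe3 higher and the ribosomal share lower in irf8 members. These are weak correlations in sparse counts over wells that share a plate, and they are given as a description.

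Some of the genes that the study names were scarce in these wells. No transcript of the targeted gene, IRF8, or of ctsl.1, a cathepsin, was seen in any member, and c1qa was seen in 0.8% of standard control wells and no irf8 well. SLC40A1, the iron exporter ferroportin, was seen in 5.9% of standard control and 1.8% of irf8 wells. CALR, calreticulin, was seen in 2.5% and 8.4%, with 7, 5 and 15 CPM against 15, 16 and 62, too low to be tested. Wells of the irf8 group were deeper, and no order is read from these shares. Counts of 0 for IRF8 carry no information on how well the morpholino worked.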

How the data were processed

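The 5 plate tables deposited by the authors hold estimated counts. Unique UMIs per gene and well had been turned by the authors into transcripts with a correction for collisions among 4096 UMIs, without scaling for depth, and inverting it gave whole UMIs for 100% of values (tolerance 1e-06). The submitters' processing notes name BWA, Seurat and GRCz11, versions not given in the sources used here. Spike-ins, 10.8% of member transcripts, were left out. Of 23628 gene IDs 18186 had a symbol, many in human style. No doublet caller was run on these single-cell sorts. Sums per plate and morpholino were rounded and fitted in edgeR 4.0.16 (R 4.3.3; filterByExpr, TMM, quasi-likelihood test, Benjamini-Hochberg at 0.05) with the plate as a block, on plates with at least 10 members of each morpholino. The labels pair sums by plate, and deviations of paired sums correlated by 0.183, 0.232 and 0.185. Scripts were tested on simulated data. Intervals and floors cover counting error only.

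Members and lists were chosen with earlier results of these data known. Named genes were the markers, all globins, up to 15 calls in each direction and 3 genes per list by smallest p, the genes highest in members or over other wells, those ordered by correlation with globin share or ratio to dividing wells, and genes the study names. TMOD4, PSMB3, PSMB1, uba1, GABARAPL2 and second gene copies complete a count and were named with their values seen. Alternatives covered DESeq2 1.42.0, limma 3.58.1, scaling, filters, thinning, thresholds, the block and leaving out plates. Another 3, chosen after seeing the data, used uncorrected UMIs, left out the largest well of each sum, or kept wells under 1% of muscle and cartilage markers. Results on some genes are not reported here.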

Additional observations from a re-analysis of the deposited data

Results flagged for a closer look

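Globin-rich, non-dividing wells also appeared outside the plates compared, on plate 5, where 2 standard control wells met the limits and no irf8 well did. They held 40.6% and 52.7% globin in 13246 and 8411 transcripts. hbbe3 made up 0.186% and 0.0677% of their globin, near or below the medians of 0.443% to 0.552% of standard control members elsewhere.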

How the results depend on the processing

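The count of 394 called genes was 203 by DESeq2 (76 higher, 127 lower, 201 shared), 233 with no filter on low counts, 262 with no replicate block (262 shared), 191 of 448 tested after thinning (106 higher, 85 lower) and 154 with globin at 10% or more (53 higher, 101 lower). Leaving out 1 plate gave 209 to 381, the lowest without plate 2. The other settings gave 287 to 408. Of the 394, 45.2% were higher, against 62.0% with per-well means in limma, 34.4% at 10% globin and 55.5% after thinning. Of 75 called genes named here, 25 kept the call in every fit that tested them, 39 lost it with globin at 10% or more and 30 without plate 2. Among these 75, calls changed sign for TMOD4 (0.00407 after thinning), col1a1a (-0.79) and COL1A2 (-0.52) in wells low in muscle and cartilage markers, and COL1A2 at 10% globin (-0.80). Over all 394, 3 changed sign at 10% globin, 4 of 359 tested in wells low in those markers, 2 of 224 after thinning and 1 of 348 at 40% globin. Uncalled globins turned to log2 0.0227 (hbae3), 0.0591 (hbae1.3), 0.0827 (hbae1.1) and 0.0992 (hbae4) after thinning, and hbae4 (ENSDARG00000045144) to 0.000806 with per-well means. The causes were not tested. Over all settings the non-dividing share of globin-rich wells kept its direction, from -24.4 to -15.8 points, and transcripts per well theirs. With no block the exact p values were 0.1 for these and 0.3 for the share of kept wells, and nothing is concluded from them. Leaving out a plate gave -21.3 to -15.9 points, -6.65 to -1.05 for the share of kept wells, -6.79 to -2.80 for the globin share and 1516 to 2150 transcripts. Shallow wells limit rare genes: 2308 of 17798 detected genes could be tested.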
